A study of Homo sapiens with 16 samples.

Results

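The genes described here encode the centromere, the kinetochore and the spindle assembly checkpoint. They were chosen by name, as every gene whose symbol is CENP followed by 1 capital letter plus 20 named kinetochore and checkpoint genes, which gave 39 of the 20612 genes measured. Polyadenylated RNA was sequenced from the human line HCT116, which comes from a colorectal cancer, with and without p53, the tumour suppressor transcription factor. The p53-/- cells and the p53+/+ cells were each treated for 8 hours with the combination of Nutlin-3A and Entinostat, with 2.5 µM Entinostat, with 5 µM Nutlin-3A or with DMSO, the vehicle. Nutlin-3A blocks the binding of MDM2 to p53, and Entinostat inhibits class I histone deacetylases. Each of the 8 groups had 2 libraries, 16 in all. The labels name no dose for the drugs within the combination, do not say how the p53-/- line was made or whether it is 1 clone, and do not say that replicates were separate cultures. Each p therefore measures the spread between these libraries, shared over the 8 groups, and that spread may be technical.

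The centromere is marked by nucleosomes that carry CENPA, a histone H3 variant, and on them a constitutive network of CENP proteins is built. In mitosis this network recruits an outer layer that holds microtubules, and kinases of the checkpoint watch that layer and restrain anaphase until every chromosome is attached. Many of these genes are transcribed mainly in G2 and mitosis, under the control of the MuvB-based DREAM complex and of MYBL2 and FOXM1, and activation of p53 is known to reduce their transcription by way of p21, the product of CDKN1A.

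Alignments per library ran between 45902800 and 55507300. Levels are given as RPKM, a read count adjusted for gene length and library size. CDKN1A had 1060 and 763 RPKM under Nutlin-3A and 89.2 and 66.1 RPKM under DMSO in p53+/+ cells, but 26.9 and 16.7 RPKM under Nutlin-3A and 23.7 and 14.1 RPKM under DMSO in p53-/- cells. Of 6 markers of colorectal epithelium, EPCAM (126 to 191 RPKM), KRT8, KRT18 and CDH1 were expressed in all 16 libraries, while CDH17 and VIL1 stayed at or under 0.0435 RPKM. Of 6 markers of other cell types, PTPRC, CD3E, COL1A2 and PECAM1 stayed at or under 0.0278 RPKM, VWF lay between 0.018 and 0.238 RPKM, and COL1A1 between 2 and 5.8 RPKM.

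All 39 genes were expressed in p53+/+ cells under DMSO. On the per-length scale, mean RPKM under DMSO ran between 2.12 ± 0.36 for CENPP and 96.4 ± 0.83 for BUB3 (SD, n = 2). BUB3, MAD2L1, ZWINT, BUB1B and BUB1, all of the checkpoint or its docking layer, stood highest, and MAD2L1 had 87.3 ± 8.8 RPKM. CENPP, CENPC, CENPI and CENPL of the inner network stood lowest, and CENPC had 4.61 ± 0.2 RPKM (SD, n = 2).

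The first question was how these genes responded when p53 was activated by Nutlin-3A. In p53+/+ cells 32 of the 39 genes fell and 0 rose, or 82.1% of the genes, against 9.5% of all 12466 genes tested that fell and 7.89% that rose (limma, Benjamini-Hochberg adjusted p under 0.05). The median log2 change was -0.89 over the 39 genes and -0.02 over all genes tested, on a scale of log2(RPKM + 0.5). CENPA, HJURP, NDC80 and BUB1 had the most negative changes, and CENPT, MAD1L1 and CENPW had the smallest. In bulk RNA, fewer cells at a stage of the cell cycle and less RNA per cell cannot be told apart.

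CENPA had 3.88 and 7.2 RPKM in the Nutlin-3A libraries and 19.2 and 21.1 RPKM in the DMSO libraries of p53+/+ cells (replicates 1 and 2). HJURP, the chaperone that loads CENPA at centromeres, had 5.69 and 10.2 RPKM under Nutlin-3A and 25.8 and 30.3 RPKM under DMSO. For both genes each Nutlin-3A library lay far below each DMSO library, and replicate 1 was the lower of the Nutlin-3A libraries. The log2 change was -1.83 ± 0.23 for CENPA (SE, adjusted p = 0.00021) and -1.81 ± 0.25 for HJURP (adjusted p = 0.00042), and mean RPKM was 3.64-fold lower for CENPA. NDC80, a subunit of the main microtubule-binding complex, had 8.68 and 12.4 RPKM under Nutlin-3A and 29.8 and 29.3 RPKM under DMSO, a log2 change of -1.47 ± 0.17 (SE, adjusted p = 8.9e-05). BUB1, a checkpoint kinase that also acts at the inner centromere, had 12.7 and 20.4 RPKM under Nutlin-3A and 42.6 and 45.1 RPKM under DMSO, a log2 change of -1.41 ± 0.19 (SE, adjusted p = 3e-04). Nutlin-3A and DMSO libraries did not overlap for either gene. Among all genes tested 34.5% lay lower without overlap in this comparison and 27.6% higher.

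At the other end, CENPT, which anchors the outer kinetochore to centromeric DNA, had 9.12 and 10.6 RPKM under Nutlin-3A and 8.94 and 10.5 RPKM under DMSO. MAD1L1, the scaffold that presents MAD2 at unattached kinetochores, had 8.94 and 7.65 RPKM under Nutlin-3A and 9.21 and 8.4 RPKM under DMSO. CENPW, a partner of CENPT, had 5.69 and 5.65 RPKM under Nutlin-3A and 6.72 and 5.94 RPKM under DMSO. CENPT and MAD1L1 overlapped between the groups, and both CENPW libraries lay just under their DMSO counterparts. Their log2 changes were 0.02 for CENPT (95% interval of the difference -0.26 to 0.29), -0.08 for MAD1L1 (adjusted p = 0.71) and -0.14 for CENPW (adjusted p = 0.69).

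The promoters of the 4 genes with the most negative changes and of CENPT and MAD1L1, the pair with the smallest, are shown because MuvB-based complexes are known to bind the CHR element, and E2F and NF-Y factors the E2F and CCAAT elements, of cell cycle promoters. Sequences are from RefSeq on GRCh38.p14, 5′ to 3′ on the strand of the gene, beginning 250 bases before the annotated start. CENPA lies on the plus strand at chr2:26785806-26786085 and NDC80 on the plus strand at chr18:2571307-2571586. HJURP lies on the minus strand at chr2:233854506-233854785, BUB1 on the minus strand at chr2:110678034-110678313, CENPT on the minus strand at chr16:67847664-67847943 and MAD1L1 on the minus strand at chr7:2232916-2233195. The RNA values were aligned to hg19, so these coordinates are not those of the RNA values. Capitals mark matches on either strand to the CHR element (spelled TTTGAA or, as the second form, TTCGAA), to the CCAAT box (the letters of its name) and to the E2F element (spelled GCGGGAA or, as the second form, GCGCGAA). On the other strand the CCAAT box reads ATTGG here.
CENPA: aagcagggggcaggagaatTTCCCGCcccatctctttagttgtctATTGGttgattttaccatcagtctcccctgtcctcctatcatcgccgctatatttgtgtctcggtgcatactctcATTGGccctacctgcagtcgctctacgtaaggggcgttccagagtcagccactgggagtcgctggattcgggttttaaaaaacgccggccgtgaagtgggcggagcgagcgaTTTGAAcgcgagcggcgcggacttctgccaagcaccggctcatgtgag
HJURP: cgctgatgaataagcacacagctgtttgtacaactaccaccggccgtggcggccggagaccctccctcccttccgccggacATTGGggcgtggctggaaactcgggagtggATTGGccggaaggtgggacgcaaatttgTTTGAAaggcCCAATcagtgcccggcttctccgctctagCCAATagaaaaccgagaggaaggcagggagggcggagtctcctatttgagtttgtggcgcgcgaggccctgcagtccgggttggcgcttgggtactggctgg
NDC80: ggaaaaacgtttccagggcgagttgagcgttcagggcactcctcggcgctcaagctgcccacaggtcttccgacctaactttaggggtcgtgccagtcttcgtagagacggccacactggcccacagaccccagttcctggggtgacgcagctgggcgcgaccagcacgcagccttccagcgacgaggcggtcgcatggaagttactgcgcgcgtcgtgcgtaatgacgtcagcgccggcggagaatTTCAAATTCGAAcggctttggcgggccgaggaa
BUB1: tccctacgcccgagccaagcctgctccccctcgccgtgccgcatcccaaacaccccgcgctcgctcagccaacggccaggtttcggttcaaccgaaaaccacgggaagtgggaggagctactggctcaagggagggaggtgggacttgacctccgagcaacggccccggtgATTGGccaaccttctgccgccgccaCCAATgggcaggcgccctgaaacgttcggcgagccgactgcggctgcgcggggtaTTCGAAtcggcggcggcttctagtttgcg
CENPT: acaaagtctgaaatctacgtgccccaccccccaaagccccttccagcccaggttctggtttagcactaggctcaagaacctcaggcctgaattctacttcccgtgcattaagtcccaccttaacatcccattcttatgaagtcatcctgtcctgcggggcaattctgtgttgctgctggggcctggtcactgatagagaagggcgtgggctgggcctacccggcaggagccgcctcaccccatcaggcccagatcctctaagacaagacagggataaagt
MAD1L1: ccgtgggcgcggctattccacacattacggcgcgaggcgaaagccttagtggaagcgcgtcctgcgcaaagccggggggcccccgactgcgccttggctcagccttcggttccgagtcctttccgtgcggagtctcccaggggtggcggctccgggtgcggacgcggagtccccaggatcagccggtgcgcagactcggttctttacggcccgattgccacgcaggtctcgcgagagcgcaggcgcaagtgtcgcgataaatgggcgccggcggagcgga
CENPA held a CHR match 18 bases before its start, 2 CCAAT boxes and 1 E2F match, and HJURP held 1 CHR match between 4 CCAAT boxes. NDC80 held 2 CHR matches that touch and so appear as 1 run of capitals, and BUB1 held 2 CCAAT boxes and a CHR match just after its start. CENPT and MAD1L1 held none of these letters in the window of 280 bases. The pattern of these 6 does not hold across the genes, since CENPW, with a log2 change of -0.14, held 1 CHR match and 2 CCAAT boxes, while CENPE (-1.14), CENPO (-1.12), DSN1 (-1.03) and CENPI (-1.01) held no match of any kind.

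**Figure D1:**
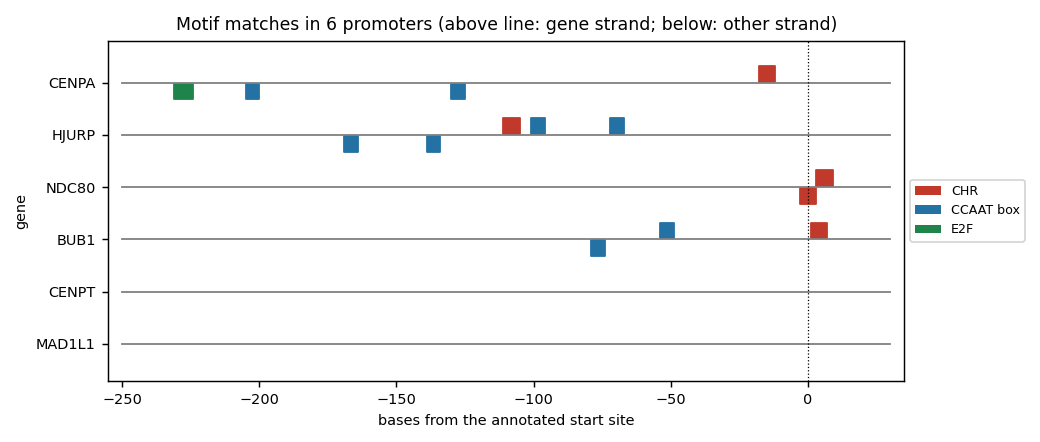
Matches to the CHR (red), CCAAT (blue) and E2F (green) letters in 6 promoters, by distance in bases from the annotated start site, drawn above the line on the strand of the gene and below it on the other strand. CENPA, HJURP, NDC80 and BUB1 each hold at least 1 CHR match, and CENPT and MAD1L1 hold no match. Genes not drawn depart from this, such as CENPW (1 CHR match, log2 change -0.14) and CENPE (no match, -1.14).

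A promoter in the RefSeq table matched 32 of the 39 genes. Those not matched were BUB3, CASC5, CENPH, CENPL, CENPM, MIS18A and TTK. The counts that follow are of genes, and a gene counts if any of its promoter entries held a match. The sequences and single genes above use only the first entry of each gene. A CHR match stood in 14 of the 32 genes (43.8%). It stood in 18.7% of the 27305 genes of the promoter table and in 14.2% of the 9378 tested genes found there. By response to Nutlin-3A, it stood in 13 of 27 genes that fell and in 1 of 5 genes that did not pass the test. A CCAAT box stood in 18 of the 32 genes (56.2%), against 38.7% of all genes of the promoter table and 43.1% of those tested. By response it stood in 15 of 27 genes that fell and 3 of 5 that did not pass. Of these 5 genes only SKA2 and CENPW held it in the first entry. An E2F match stood in 9 of the 32 genes (28.1%), against 9.65% of all genes of the promoter table and 16.6% of those tested. It stood in 9 of 27 genes that fell and 0 of 5 that did not pass. A CHR match at most 60 bases before the start, or after it in the window, stood in 12 of the 32 genes (37.5%). This compares with 5.65% of all genes of the promoter table and 4.32% of those tested. It stood in 11 of 27 genes that fell and 1 of 5 that did not pass. These matches describe letters in a window, and binding was not measured.

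Within the centromeric nucleosome and its loading machinery, 4 of 4 genes fell under Nutlin-3A in p53+/+ cells, with a median log2 change of -1.29. MIS18A and OIP5, which form the Mis18 complex that primes centromeres for new CENPA, had log2 changes of -0.78 (adjusted p = 0.00036) and -0.71 (adjusted p = 0.0075), smaller than those of CENPA and HJURP. OIP5 lost its call without DMSO replicate 2 (adjusted p = 0.053) or Nutlin-3A replicate 1 (adjusted p = 0.092).

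The constitutive network on the centromere was less uniform, with 9 of 13 genes falling under Nutlin-3A and a median log2 change of -0.84. CENPN, which reads the CENPA nucleosome, had 7.81 and 9.29 RPKM under Nutlin-3A and 15.9 and 16 RPKM under DMSO. Its DMSO libraries were nearly equal and both lay above the Nutlin-3A libraries (log2 change -0.87 ± 0.1, SE, adjusted p = 0.00014). The genes that fell were CENPO (-1.12), CENPL (-1.10), CENPI (-1.01), CENPU (-0.98), CENPK (-0.89), CENPN, CENPQ (-0.84), CENPM (-0.75) and CENPC (-0.46), the last encoding the protein that ties CENPA nucleosomes to the outer kinetochore. CENPP (-0.37, adjusted p = 0.11), CENPH (-0.29, adjusted p = 0.32), CENPW and CENPT did not pass the test. Leaving out 1 library ended the call of CENPC in each of 4 cases (adjusted p 0.11 to 0.16), of CENPI, CENPK and CENPM without DMSO replicate 2 or Nutlin-3A replicate 1 (0.064 to 0.14), and of CENPQ without DMSO replicate 1, Nutlin-3A replicate 1 or Nutlin-3A replicate 2 (0.052 to 0.094).

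In the outer microtubule-binding network 7 of 7 genes fell under Nutlin-3A, with a median log2 change of -1. The 4 subunits of the NDC80 complex gave -1.47 for NDC80, -1 for SPC24, -0.89 for NUF2 and -0.75 for SPC25. CASC5, also called KNL1, which docks the BUB proteins, gave -1.10, and DSN1 of the MIS12 complex gave -1.03. ZWINT, a KNL1 partner, had 30.1 and 46.3 RPKM under Nutlin-3A and 57.2 and 69.4 RPKM under DMSO (log2 change -0.75 ± 0.19, SE, adjusted p = 0.017), so that its groups lay apart although each spread widely. Without Nutlin-3A replicate 1 the calls of SPC24 (adjusted p = 0.056), CASC5 (0.13), ZWINT (0.18) and SPC25 (0.2) were lost. Without DMSO replicate 2 those of SPC25 (0.085), CASC5 (0.098) and ZWINT (0.15) were lost, and SPC25 also lost its call without DMSO replicate 1 (0.16) or Nutlin-3A replicate 2 (0.057).

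Of the SKA complex, which keeps kinetochores on moving microtubule ends, 2 of 3 genes fell. SKA3 had 6.75 and 10.3 RPKM under Nutlin-3A and 20.3 and 25.5 RPKM under DMSO (log2 change -1.39 ± 0.23, SE, adjusted p = 0.0014). SKA1 had 3.42 and 5.13 RPKM under Nutlin-3A and 11 and 11.2 RPKM under DMSO (-1.30 ± 0.17, SE, adjusted p = 0.00021). In both genes the groups were well apart. SKA2 had 14.7 and 15.3 RPKM under Nutlin-3A and 22.6 and 19.4 RPKM under DMSO, also without overlap, like 34.5% of all genes tested. Its log2 change of -0.47 had a limma adjusted p of 0.052 (0.019 with a block for replicate number).

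The corona, motor and RZZ genes fell in 3 of 3 cases. CENPF, a farnesylated corona protein, had 8.19 and 17.4 RPKM under Nutlin-3A and 27.5 and 32.7 RPKM under DMSO, a spread between Nutlin-3A replicates of more than 2-fold (log2 change -1.29 ± 0.32, SE, adjusted p = 0.014). CENPE, a kinesin that moves chromosomes to the spindle equator, gave -1.14 and ZWILCH, a subunit of the RZZ complex, -0.67. Their calls were lost without Nutlin-3A replicate 1 (adjusted p = 0.15 for CENPF, 0.12 for CENPE and 0.12 for ZWILCH) or without DMSO replicate 2 (0.11, 0.074 and 0.092 in the same order), and ZWILCH also without DMSO replicate 1 (0.064).

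Among the 6 checkpoint genes 4 fell under Nutlin-3A. BUB1B, which encodes the anaphase inhibitor BUBR1, had 15.4 and 19.6 RPKM under Nutlin-3A and 44.1 and 43.7 RPKM under DMSO (log2 change -1.31 ± 0.16, SE, adjusted p = 0.00015). TTK, the kinase MPS1 that starts checkpoint signalling, had 9.25 and 12.8 RPKM under Nutlin-3A and 28.2 and 27.4 RPKM under DMSO (-1.31 ± 0.2, SE, adjusted p = 0.00087). BUB1 fell as given above, and MAD2L1, which encodes the inhibitor MAD2, gave -0.99 (adjusted p = 0.00074). The checkpoint genes that did not pass were MAD1L1 and BUB3, a WD40 protein that carries BUB1 and BUBR1 to kinetochores. BUB3 had 86.3 and 87.5 RPKM under Nutlin-3A and 97 and 95.8 RPKM under DMSO, without overlap, like 34.5% of all genes tested. Its log2 change was -0.15 ± 0.086 (SE, limma adjusted p = 0.27). The checkpoint kinases and BUBR1 were thus 2.51-fold to 2.65-fold lower in mean RPKM, against 1.11-fold for BUB3.

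Of the other genes with a CENP letter name, 3 of 3 fell, by less than most. CENPV had 22.4 and 21 RPKM under Nutlin-3A and 35.8 and 29.3 RPKM under DMSO (log2 change -0.57). CENPJ, a centriole protein, gave -0.61 and CENPB, which binds a motif in alpha satellite DNA, -0.50. The CENPB call was lost without DMSO replicate 1 (adjusted p = 0.092) or Nutlin-3A replicate 2 (0.065), that of CENPV without DMSO replicate 1 (0.1) or Nutlin-3A replicate 2 (0.064), and that of CENPJ without DMSO replicate 2 (0.056) or Nutlin-3A replicate 1 (0.08).

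**Figure D2:**
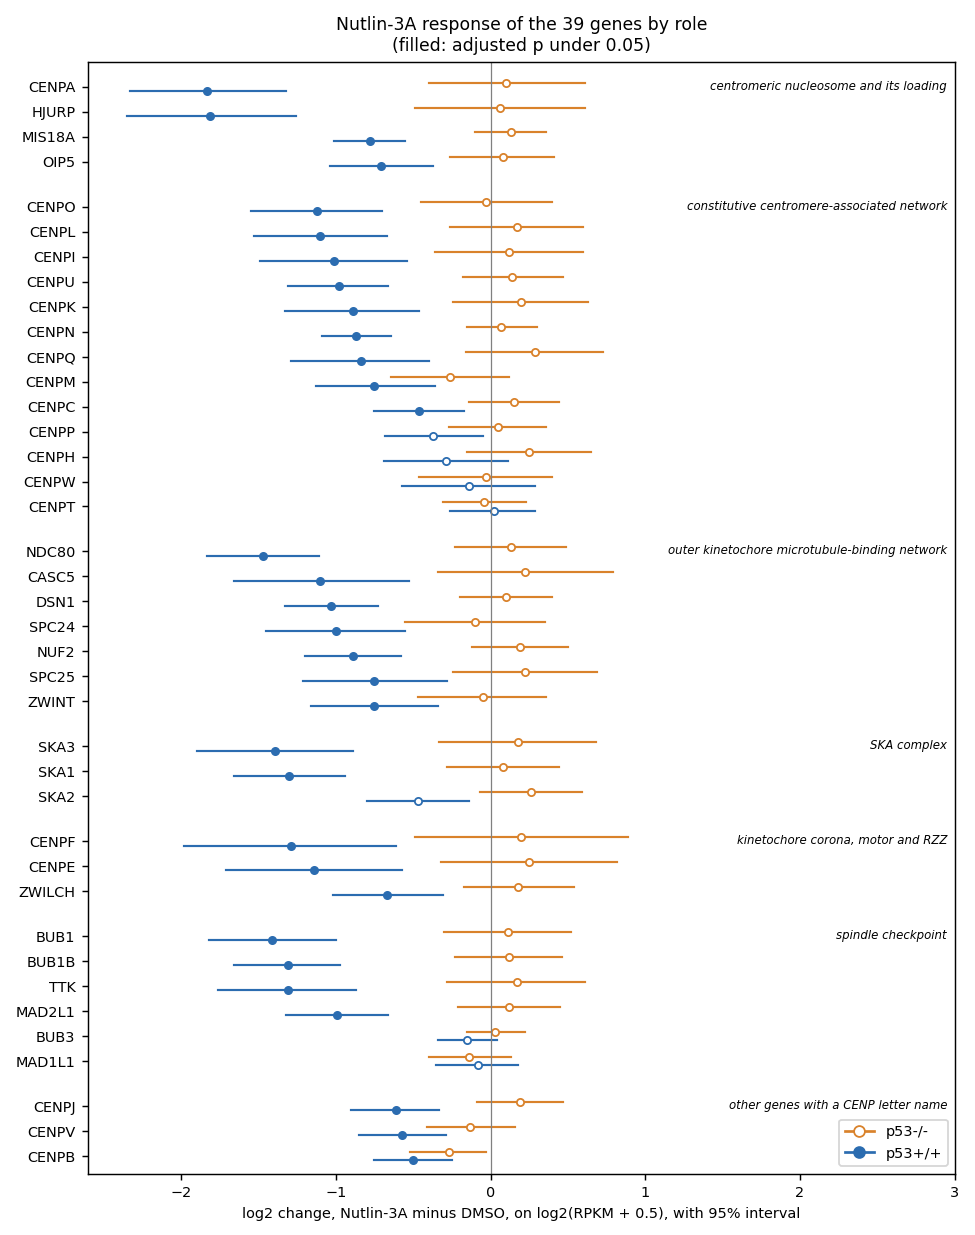
Log2 change under Nutlin-3A against DMSO for each of the 39 genes, grouped by role, with 95% intervals, in p53-/- cells (orange) and p53+/+ cells (blue). Filled points passed the test, which 0 did in p53-/- cells and 32 in p53+/+ cells.

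The fall differed in size between the replicates. The log2 change within replicate 1 was lower than that within replicate 2 for 37 of the 39 genes under Nutlin-3A in p53+/+ cells, with medians of -1.02 and -0.75. Among the other 1152 genes that fell, these medians were -0.55 and -0.50. Those genes were picked by passing the test, which favours replicates that agree, while the 39 include 7 that did not pass. The gaps are therefore not like for like. Under the combination the medians were -1.09 and -0.65 for the 39 genes, and -0.64 and -0.48 for the other 3309 genes that fell. The share of all genes tested with a lower value in replicate 1 was not taken. Both replicates moved the same way, since 38 genes were negative in replicate 1 and 37 in replicate 2. The log2 change of CDKN1A was nearly equal in the replicates, 3.56 in replicate 1 and 3.52 in replicate 2, with higher levels in replicate 1 under both Nutlin-3A (1060 and 763 RPKM) and DMSO (89.2 and 66.1 RPKM). The count of genes that fell was 18 without Nutlin-3A replicate 1 and 21 without DMSO replicate 2, and CENPA, HJURP, NDC80, BUB1, SKA3, BUB1B, TTK and SKA1 kept their calls without any 1 of the 4 libraries compared. Of the markers EPCAM fell under Nutlin-3A (-0.31), and its part in the result was not tested.

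**Figure D3:**
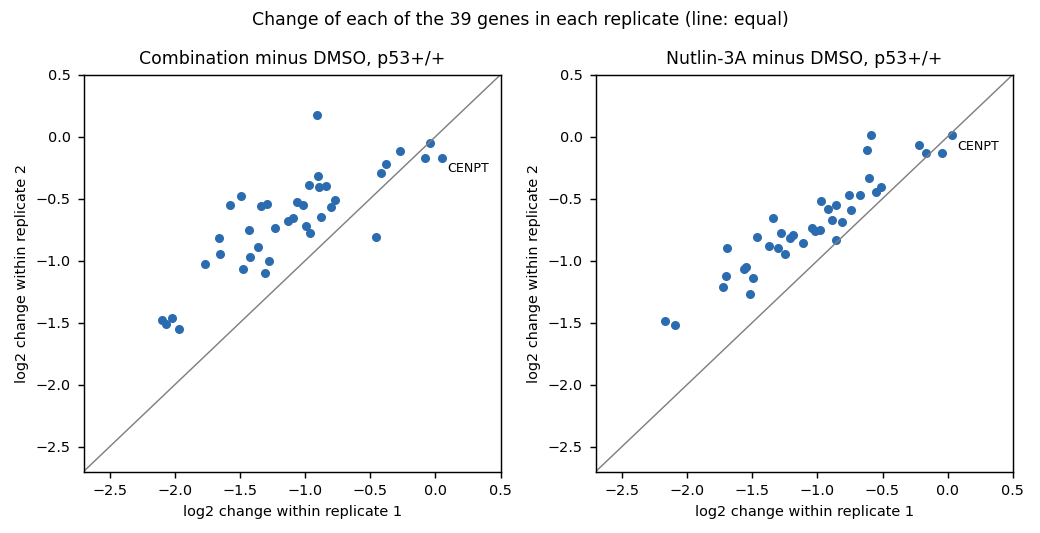
Log2 change of each of the 39 genes within replicate 1 (horizontal axis) and within replicate 2 (vertical axis) in p53+/+ cells, under the combination (left) and Nutlin-3A (right), with a line at equal change. Points lie above the line for 35 genes under the combination and for 37 under Nutlin-3A.

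Other genes of chromosome segregation were read from lists in the same p53+/+ comparison. Over all genes tested 9.5% fell and 7.89% rose there. A list of the chromosomal passenger complex, cohesion protection and related mitotic kinases held 10 genes, and 10 fell. Among them were PLK1, a mitotic kinase (-1.71), GSG2, the histone kinase haspin (-1.50), and SGOL2 (-1.46) and CDCA5 (-1.43), which protect cohesion. Of 11 further kinetochore genes 7 fell, among them KNSTRN (-1.16), SPDL1 (-1.13) and STRA13, or CENPX (-0.74). Of 21 genes of the anaphase-promoting complex and its regulators 9 fell, among them its inhibitor FBXO5 (-1.68), its activator CDC20 (-1.43), its substrate CCNB1 (-1.38) and ESPL1, or separase (-1.21). Of 13 DREAM, MYBL2 and FOXM1 genes 6 fell, among them MYBL2 (-1.40), FOXM1 (-1.22), RBL1 (-1.04) and TFDP1 (-0.62), and 1 rose, TFDP2 (0.55). All of these named genes passed the limma test, with adjusted p at or under 0.0071. They were picked from the called genes by size of change. Over all genes of each list the median log2 changes were -1.39, -0.54, -0.32 and -0.38, in the order given.

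The next question was whether Nutlin-3A did the same without p53. In p53-/- cells 0 of the 39 genes passed the test, and neither did any other gene (0% of the 12466 tested), while at an unadjusted p under 0.05 limma gave 1 of the 39 genes and 440 of all. The median log2 change was 0.12 over the 39 genes and 0.01 over all genes tested. Single genes lay between -0.27 (CENPB) and 0.29 (CENPQ), with 30 positive and 9 negative. The outermost bounds of the 95% intervals were -0.64 and 0.89. Without overlap 16 of the 39 genes lay higher under Nutlin-3A and 3 lower, against 16.5% of all genes tested in each direction. CENPA had 21 and 18 RPKM under Nutlin-3A and 20.3 and 16 RPKM under DMSO, groups that overlapped. HJURP had 29.2 and 31.2 RPKM under Nutlin-3A and 29.7 and 28.4 RPKM under DMSO. Neither gene was low in any p53-/- library.

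The response itself was compared between genotypes as the log2 change in p53-/- cells minus that in p53+/+ cells. For Nutlin-3A this difference passed the test for 22 of the 39 genes, all positive, against 3.29% of all genes tested that were positive and passed (limma interaction, adjusted p under 0.05). It was 1.93 ± 0.33 for CENPA (SE, adjusted p = 0.004), with log2 changes of 0.10 in p53-/- cells and -1.83 in p53+/+ cells. HJURP gave 1.86 (adjusted p = 0.0079), NDC80 1.60 (adjusted p = 0.0019) and SKA3 1.57 (adjusted p = 0.013). SKA3 had 22.8 and 28.5 RPKM under Nutlin-3A and 21.2 and 23.8 RPKM under DMSO in p53-/- cells, so that no p53-/- library was low. By role the difference passed for 3 of 4 nucleosome and loading genes, 7 of 13 of the constitutive network, 3 of 7 of the outer network, 2 of 3 SKA genes, 2 of 3 corona genes, 4 of 6 checkpoint genes and 1 of 3 other CENP genes. SKA3 lost its call without Nutlin-3A replicate 1 or DMSO replicate 2 of p53+/+ cells, or without Nutlin-3A replicate 2 or DMSO replicate 1 of p53-/- cells (adjusted p 0.058 to 0.069). The count was 13 without Nutlin-3A replicate 2 of p53-/- cells or without Nutlin-3A replicate 1 of p53+/+ cells, and 14 without DMSO replicate 1 of p53-/- cells or DMSO replicate 2 of p53+/+ cells.

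The genotypes were also compared directly under each treatment. Under DMSO 0 of the 39 genes passed between p53-/- and p53+/+ cells, against 4.69% of all genes, with 2 of the 39 genes at an unadjusted p under 0.05. With a block for replicate number 2 passed, CENPV (0.42) and ZWINT (0.41), both higher in p53-/- cells. With that block 586 of the 12466 genes tested were higher. Under Nutlin-3A 32 of the 39 genes were higher in p53-/- cells, against 17.5% of all genes, with a median log2 difference of 1.09. SKA1 had 14 and 15.9 RPKM in p53-/- cells and 3.42 and 5.13 RPKM in p53+/+ cells under Nutlin-3A (log2 difference 1.71 ± 0.17, SE, adjusted p = 1.4e-05). BUB1 had 50.6 and 52.1 RPKM in p53-/- cells and 12.7 and 20.4 RPKM in p53+/+ cells (1.64 ± 0.19, SE, adjusted p = 5e-05). Neither gene overlapped between genotypes, like 35.2% of all genes tested that lay higher in p53-/- cells. HJURP (1.92) and CENPA (1.78) gave the largest differences. These comparisons share libraries with the drug comparisons, so they restate the same values side by side.

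**Figure D4:**
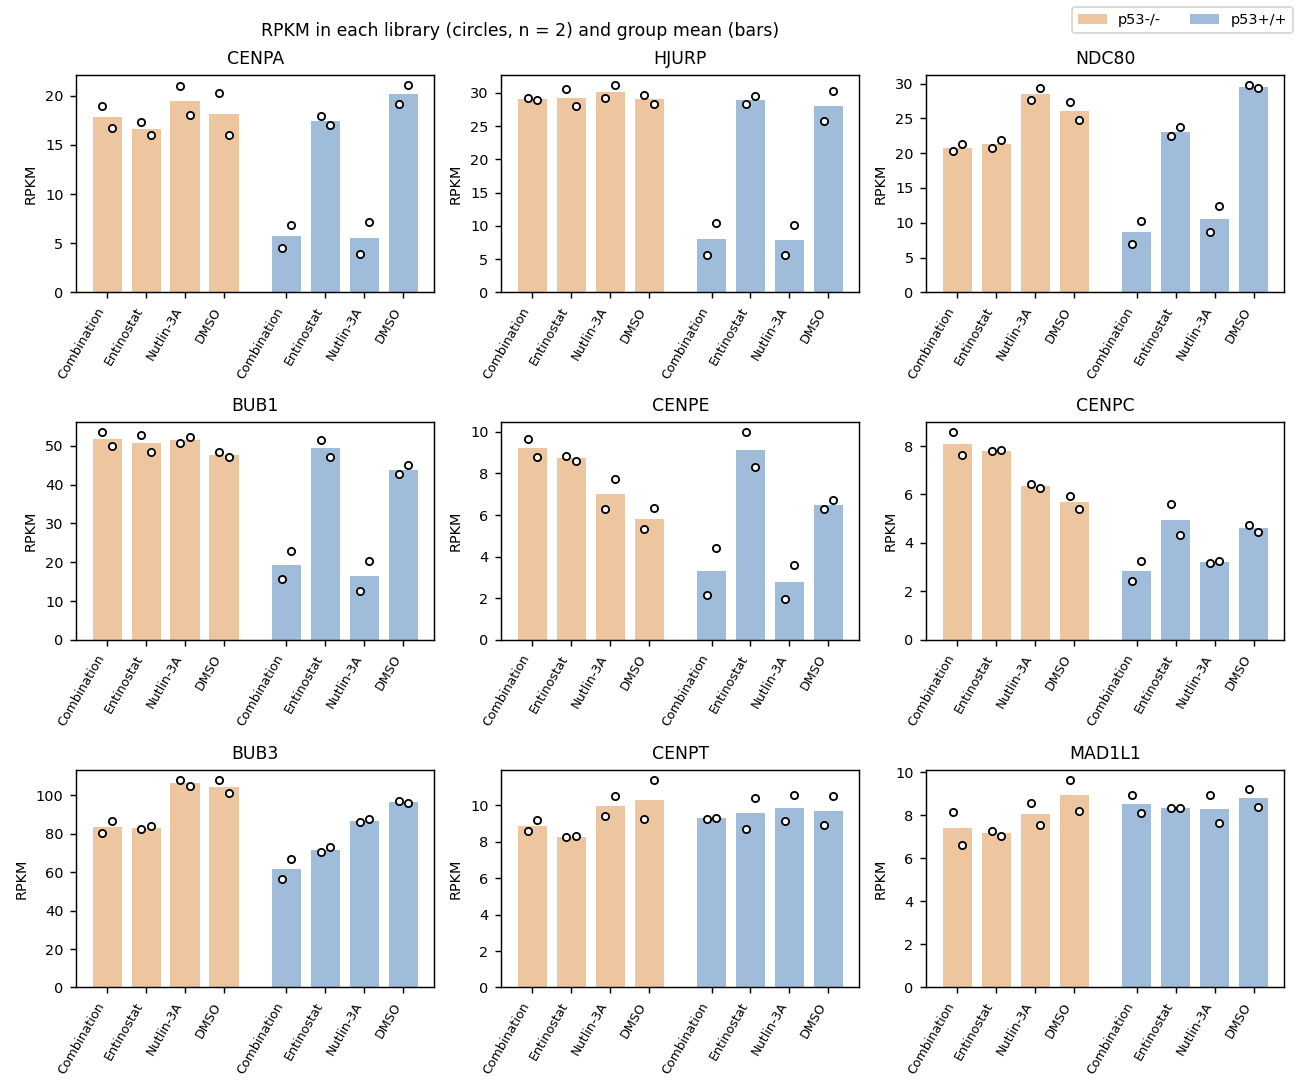
RPKM of 9 genes in each of the 16 libraries (circles) with the mean of 2 libraries (bars), by treatment, in p53-/- cells (orange) and p53+/+ cells (blue), on axes that start at 0. CENPA averaged 19.5 RPKM under Nutlin-3A in p53-/- cells and 5.54 RPKM in p53+/+ cells, while CENPT and MAD1L1 lie between 6.63 and 11.4 RPKM in every library.

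Entinostat alone asked how the genes respond to inhibition of histone deacetylases. In p53+/+ cells 1 of the 39 genes fell and 0 rose, against 12.4% of all genes that fell and 15.1% that rose, so a smaller share than among all genes. The gene was BUB3, with 70.4 and 72.9 RPKM under Entinostat and 97 and 95.8 RPKM under DMSO (log2 change -0.43 ± 0.086, SE, adjusted p = 0.0048). COL1A1, a fibroblast marker, rose as well (log2 change 0.79, adjusted p = 0.0015), while the other markers of other cell types stayed near 0. KRT8 (0.39) and CDH1 (0.78) of the epithelial markers rose too, and the part of these markers in the BUB3 value was not tested. Of all genes tested 33.2% lay lower here without overlap. The BUB3 groups did not overlap, and without Entinostat replicate 1 the adjusted p was 0.055. With a block for replicate number 3 genes passed, 2 lower and 1 higher, against 2545 lower and 3020 higher of the 12466 genes tested. BUB1B (-0.35, limma adjusted p = 0.029) fell and CENPI (0.46, adjusted p = 0.033) rose there too.

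In p53-/- cells Entinostat left 1 gene lower and 1 higher, against 13.3% and 15% of all genes, and 0 of either with quantile normalization. BUB3 had 82.4 and 83.8 RPKM under Entinostat and 108 and 101 RPKM under DMSO (log2 change -0.32 ± 0.086, SE, adjusted p = 0.016). CENPC had 7.8 and 7.82 RPKM under Entinostat and 5.94 and 5.4 RPKM under DMSO (0.43 ± 0.13, SE, adjusted p = 0.031). Both genes had groups that lay apart, like 31.1% of all genes tested that lay lower and 34.6% that lay higher. CDKN1A also rose there, with 91 and 49.9 RPKM under Entinostat and 23.7 and 14.1 RPKM under DMSO (log2 change 1.85, limma adjusted p = 0.0046). COL1A1 (0.69) and CDH1 (0.76) rose here too, and their part was not tested. BUB3 lost its call without DMSO replicate 1 (adjusted p = 0.097) or Entinostat replicate 1 (0.1), and CENPC without any 1 of the 4 libraries (0.067 to 0.17). With a block for replicate number 6 genes passed, 5 lower and 1 higher, against 2631 lower and 3046 higher of the 12466 genes tested. CENPM (-0.40), BUB1B (-0.33), MAD1L1 (-0.29) and CENPT (-0.29) fell there too.

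The Entinostat response did not differ detectably between genotypes, with 0 of the 39 genes and 0% of all genes passing the interaction test, and 0 of the 39 and 164 of all genes at an unadjusted p under 0.05. The 95% intervals of this difference lay between -0.90 and 1.04. For BUB3 the difference was 0.10, with an interval of -0.16 to 0.37. As a description across genes, which are not independent replicates, the log2 changes in p53-/- cells and p53+/+ cells had a Pearson correlation of 0.81 over the 39 genes, and 33 of 39 had the same sign. The 2 genotypes share no library, but they share replicate numbers. Between genotypes under Entinostat 1.36% of all genes were higher in p53-/- cells, and 550 of 12466 with a block for replicate number. Of the 39 genes CENPC alone passed without that block. It had 7.8 and 7.82 RPKM in p53-/- cells and 5.59 and 4.33 RPKM in p53+/+ cells (log2 difference 0.62, adjusted p = 0.024). The call was lost without Entinostat replicate 1 or 2 of p53-/- cells or replicate 2 of p53+/+ cells (adjusted p 0.11 to 0.2), and 3 genes passed with a block for replicate number, CENPV and ZWINT being added.

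The combination lowered the same number of genes as Nutlin-3A in p53+/+ cells, 32 of 39, with 0 higher and a median log2 change of -0.88, against 26.8% of all genes that fell and 23.2% that rose. BUB1B had 10.1 and 15 RPKM under the combination and 44.1 and 43.7 RPKM under DMSO (log2 change -1.79 ± 0.16, SE, adjusted p = 1.8e-05). NDC80 had 6.97 and 10.3 RPKM under the combination and 29.8 and 29.3 RPKM under DMSO (-1.74 ± 0.17, SE, adjusted p = 2.9e-05). HJURP had 5.64 and 10.5 RPKM under the combination, against 25.8 and 30.3 RPKM under DMSO (-1.79). CENPA had 4.53 and 6.88 RPKM under the combination, against 19.2 and 21.1 RPKM under DMSO (-1.76). In these 4 genes every combination library lay under every DMSO library, as in 39.3% of all genes tested. BUB3 (-0.64, adjusted p = 0.00016) and SKA2 (-0.61, adjusted p = 0.0061) passed here and not under Nutlin-3A, while CENPB (-0.13) and CENPV (-0.30) passed under Nutlin-3A and not here. Those 2 comparisons share their DMSO libraries, and the comparison of the drugs follows. CENPH (-0.37), CENPP (-0.35), CENPW (-0.19), CENPT (-0.06) and MAD1L1 (-0.04) passed under neither. Among the markers, COL1A1 (1.03), KRT8 (0.76) and CDH1 (0.88) rose and EPCAM (-0.33) fell in this comparison, and their part in the result was not tested. SKA2 lost its call without combination replicate 1 (adjusted p = 0.072) or DMSO replicate 1 (0.055), and the block added CENPP and CENPV.

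Set directly against Nutlin-3A in p53+/+ cells, the combination left 3 of the 39 genes lower and 1 higher, against 18.1% of all genes lower and 16.6% higher. With quantile normalization the split was 1 lower and 2 higher. With a block for replicate number 3412 of all 12466 genes tested were lower and 3117 higher. BUB3 had 56.7 and 67.1 RPKM under the combination and 86.3 and 87.5 RPKM under Nutlin-3A (log2 difference -0.49, adjusted p = 0.0018). BUB1B had 10.1 and 15 RPKM under the combination and 15.4 and 19.6 RPKM under Nutlin-3A (-0.47, adjusted p = 0.037). MIS18A had 9.51 and 12 RPKM under the combination and 13.4 and 14 RPKM under Nutlin-3A (-0.35, adjusted p = 0.026). In each the combination libraries lay lower without overlap, as in 35.3% of all genes tested. CENPB ran the other way, with 24.8 and 20.7 RPKM under the combination and 17.8 and 16.9 RPKM under Nutlin-3A (0.37, adjusted p = 0.025). CENPA differed by 0.07 (95% interval -0.44 to 0.57) and HJURP by 0.02 (-0.53 to 0.56) between these groups. Without combination replicate 1 BUB1B (adjusted p = 0.36), CENPB (0.21) and MIS18A (0.25) lost their calls, and so they did without Nutlin-3A replicate 2 (0.25, 0.11 and 0.11), and CENPB (0.075) and MIS18A (0.077) without Nutlin-3A replicate 1. The count was 9 without combination replicate 2, 2 without Nutlin-3A replicate 1, 1 from the libraries of these groups alone, and 7 with a block for replicate number, which added MAD2L1 (-0.41) as lower and SKA1 (0.39) and CENPV (0.27) as higher.

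Set against Entinostat in p53+/+ cells, the combination left 30 of the 39 genes lower, against 9.69% of all genes, with a median log2 difference of -0.92. HJURP had 5.64 and 10.5 RPKM under the combination and 28.4 and 29.5 RPKM under Entinostat (-1.84 ± 0.25, SE, adjusted p = 0.00064). CENPA followed at -1.56, BUB1B at -1.44 and NDC80 at -1.40. The count was 18 without combination replicate 1 and 7 when the fit used the libraries of these groups alone. Departure from additivity on the log2 scale, taken as combination minus Nutlin-3A minus Entinostat plus DMSO, passed for 0 of the 39 genes and 0% of all genes, and at an unadjusted p under 0.05 for 0 and 587. Single values ran between -0.40 for CENPQ and 0.35 for CENPV. The outermost bounds of the 95% intervals over the 39 genes were -1.08 and 0.99. Intervals differed in width between genes, so no single limit of detection holds for all of them.

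In p53-/- cells the combination left BUB3 lower (-0.32, adjusted p = 0.015) and CENPC higher (0.48, adjusted p = 0.018) of the 39 genes, against 14.7% of all genes lower and 17.1% higher. The split was 0 lower and 1 higher with quantile normalization, and 2 lower and 1 higher with median of ratios scaling. BUB3 had 80.2 and 86.4 RPKM under the combination and 108 and 101 RPKM under DMSO. CENPC had 8.56 and 7.64 RPKM under the combination and 5.94 and 5.4 RPKM under DMSO. Both gene calls were those made with Entinostat in these cells, in comparisons that share the DMSO libraries. COL1A1 (0.67) and CDH1 (0.74) also rose in this comparison, and their part was not tested. BUB3 lost its call without combination replicate 1 (adjusted p = 0.13) or DMSO replicate 1 (0.094), and CENPC without combination replicate 1 (0.14) or DMSO replicate 2 (0.11). With a block for replicate number 9 genes passed, 7 lower and 2 higher, against 2808 lower and 3280 higher of the 12466 genes tested. The genes added were CENPM (-0.44), CENPO (-0.36), BUB1B (-0.34), MIS18A (-0.27), MAD1L1 (-0.26) and CENPV (-0.22) as lower and CENPE (0.63) as higher.

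The combination response differed between genotypes for 23 of the 39 genes, all positive as p53-/- minus p53+/+, against 3.81% of all genes. HJURP gave 1.79 (adjusted p = 0.016) and CENPA 1.74 (adjusted p = 0.013). CENPE had 9.67 and 8.81 RPKM under the combination and 5.32 and 6.32 RPKM under DMSO in p53-/- cells, but 2.18 and 4.41 RPKM under the combination and 6.28 and 6.73 RPKM under DMSO in p53+/+ cells. The combination libraries of CENPE lay above DMSO in the p53-/- cells and below it in the p53+/+ cells. Over all genes tested 36.3% lay above without overlap in p53-/- cells and 39.3% below in p53+/+ cells. The difference for CENPE was 1.58 ± 0.37 (SE, limma interaction, adjusted p = 0.031). TTK had 31.8 and 28.3 RPKM under the combination and 25.8 and 23.4 RPKM under DMSO in p53-/- cells, but 8.56 and 15.3 RPKM under the combination and 28.2 and 27.4 RPKM under DMSO in p53+/+ cells (difference 1.53 ± 0.29, SE, adjusted p = 0.013). Between genotypes under the combination 33 of the 39 genes were higher in p53-/- cells, against 20.5% of all genes. CENPQ had 12.5 and 11.6 RPKM in p53-/- cells and 2.9 and 5.51 RPKM in p53+/+ cells (log2 difference 1.48, adjusted p = 0.00029). The 4 named calls on the response did not all hold without 1 library. CENPE lost its call without each of the 8 libraries but combination replicate 2 of p53+/+ cells (adjusted p 0.073 to 0.11). HJURP, CENPA and TTK lost theirs without DMSO replicate 2 of either genotype, and HJURP also without combination replicate 2 of p53-/- cells, CENPA without combination replicate 1 of p53+/+ cells and TTK without DMSO replicate 1 of p53+/+ cells (0.051 to 0.068). The count over the 39 genes was 4 without DMSO replicate 2 and 14 without DMSO replicate 1 of p53-/- cells, 7 and 6 without these of p53+/+ cells, 9 without combination replicate 1 of either genotype, 11 without combination replicate 2 of p53-/- cells, 15 without a filter on low values and 9 from the libraries of these groups alone.

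**Figure D5:**
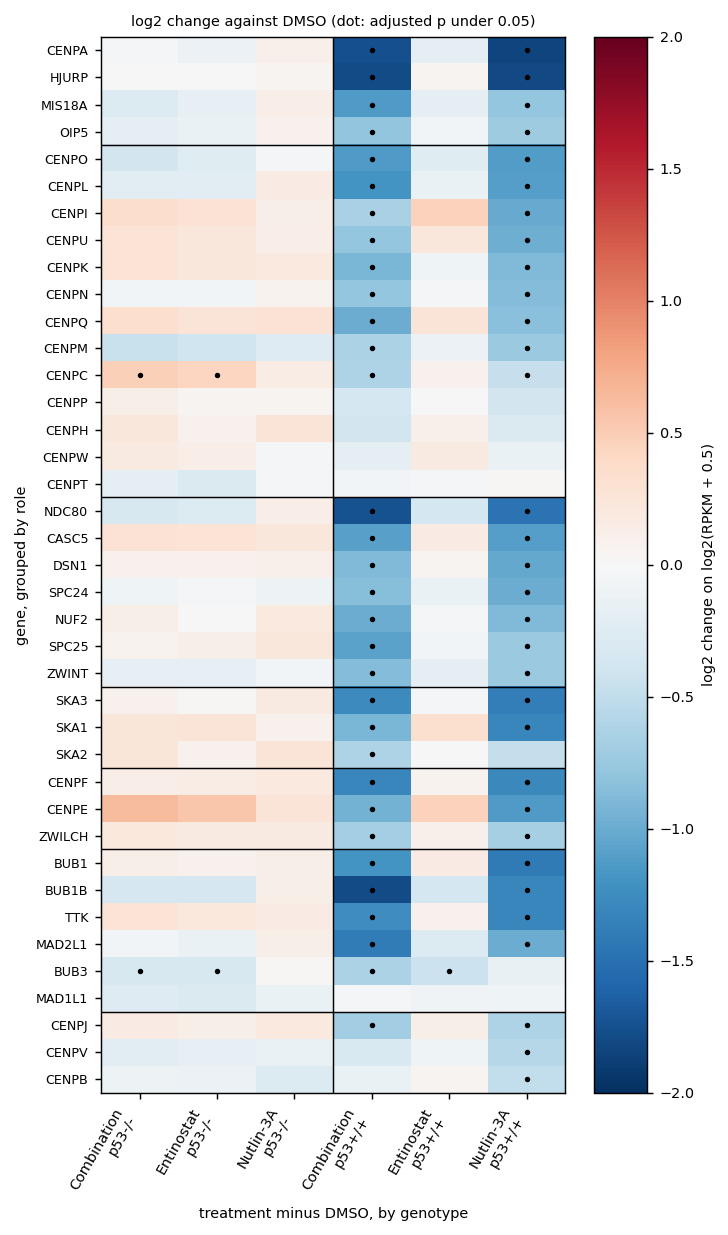
Log2 change against DMSO of the 39 genes (down the page, grouped by role) under the combination, Entinostat and Nutlin-3A in p53-/- cells (left) and p53+/+ cells (right), with a dot where the test was passed. Falls (blue) fill the combination and Nutlin-3A columns of p53+/+ cells, with 32 dots each, while the other columns hold 0 to 2.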

How the data were processed

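The deposited table gives RPKM, a count of reads scaled by the authors to gene length and library size. Bowtie2, Partek and the build hg19 are named in the submitters' processing notes. Versions, gene models and read filters are not given there, and the strand setting remains not given in the sources used here. Whether reads of overlapping or antisense genes were told apart is therefore unknown. Libraries were made with a stranded mRNA kit, per the labels' protocols.

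Values were taken as log2(RPKM + 0.5). Genes with a mean of at least 0.5 RPKM over the 16 libraries were tested, 12466 of 20612 (60.5%), and all 39 genes described passed. On this scale low genes change less than their RPKM does, and folds in the text divide mean RPKM values. The model, limma 3.58.1 run in R 4.3.3, was fitted to 8 group means over all 16 libraries with an intensity trend (8 residual and 4.09 prior degrees of freedom), with Benjamini-Hochberg adjustment over all tested genes in each of 16 comparisons and a call at an adjusted p under 0.05. The fit was tested on simulated data, with independent libraries, the same spread in all groups and no effect of replicate number. That test cannot show how the fit behaves with replicates that correlate or groups that differ in spread, as here.

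The genes and lists were chosen with earlier results of these data known. Values per library were given for the 8 most negative and the 3 smallest changes under Nutlin-3A in p53+/+ cells, for up to 4 called genes in each direction elsewhere, and for the most abundant gene of each role. From other lists up to 4 called genes were named. Some genes chosen by these rules are not reported here.

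Differences between replicates 1 and 2 correlated across genes in all 28 pairs of groups (r 0.275 to 0.778, median 0.425). By a rule on these correlations the replicate numbers were taken to pair the samples. Counts and p values are nevertheless from the fit without this pairing, unless another setting is named. A fit with the number as a block was an alternative. For Nutlin-3A against DMSO in p53+/+ cells, it raised the genes called among all tested from 2167 to 3931. Statements that a gene did not pass therefore hold for the fit without the block, and some such genes passed with it. Other alternatives were the pseudocount, the filter, the scaling, the groups in the fit and leaving out each library. Promoter sequences are RefSeq's on GRCh38.p14, matched by symbol or synonym, and cover 250 bases before the annotated start and 30 from it.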

Additional observations from a re-analysis of the deposited data

Results flagged for a closer look

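The responses below differed between the p53-/- and p53+/+ cells by the limma interaction test, given as the log2 change in p53-/- cells minus that in p53+/+ cells. For Nutlin-3A 22 of the 39 genes differed, with the largest differences for CENPA (1.93), HJURP (1.86), NDC80 (1.60) and SKA3 (1.57). For the combination 23 genes differed, with the largest for HJURP (1.79), CENPA (1.74), CENPE (1.58) and TTK (1.53). These counts are from the fit without a block for replicate number, and that block raised them to 31 and 31. No group had enough libraries for a check on single libraries that stand apart.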

How the results depend on the processing

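No called value among the named results changed direction under any alternative. Of 276 single gene results, 276 kept their side of the threshold with a filter at a mean of 1 RPKM, 275 and 272 with pseudocounts of 1 and 0.1, 266 with median of ratios scaling, 257 with quantile normalization, 251 without a filter, 229 with the replicate number as a block (47 gained a call, 0 lost it) and 212 from the groups compared alone (49 lost and 15 gained a call). Counts of the 39 genes called moved by over 1.5 times as follows, and the cause was not tested. In p53+/+ cells the count for Entinostat against DMSO was 3 with the replicate block and 6 from the groups compared alone. For the combination against Nutlin-3A it was 7 with the replicate block and 1 from those groups alone, and against Entinostat 7 from those groups alone. In p53-/- cells it was 6 with the replicate block, 1 without a filter and 0 with quantile normalization for Entinostat, and 9 with the replicate block and 1 with quantile normalization for the combination. Between genotypes it was 2 with the replicate block under DMSO, and under Entinostat 3 with the replicate block and 0 from those groups alone. For the difference in the combination response it was 15 without a filter and 9 from those groups alone. The block moved no other count by over 1.5 times, and of the calls it added, those not given with the results are BUB3, CENPH, CENPM and CENPW as lower under the combination against Entinostat, CENPH and CENPM (under Nutlin-3A) and CENPW (under the combination) as higher in p53-/- cells, and 9 and 8 differences in response to Nutlin-3A and the combination. Leaving out 1 library at a time gave counts of 18 to 27 for Nutlin-3A, 0 to 1 for Entinostat and 25 to 33 for the combination against DMSO in p53+/+ cells, 2 to 9 for the combination against Nutlin-3A and 18 to 32 against Entinostat. It gave 0 to 0, 0 to 1 and 0 to 2 for the same drugs in p53-/- cells, and between genotypes 29 to 32 under Nutlin-3A, 0 to 1 under Entinostat, 30 to 33 under the combination and 0 to 0 under DMSO. For differences in response it gave 13 to 25 for Nutlin-3A, 0 to 0 for Entinostat and 4 to 30 for the combination, and 0 to 0 for departure from additivity. Where 1 library was left in a group it was assumed to vary like the other groups. Read counts per gene are not used here, so the depth behind a single RPKM value is unknown, and 2 libraries a group limit the precision.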
